A study of Mus musculus with 30 samples.

Results

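Non-tumor colon of mice without spermine oxidase was compared with that of wild-type mice after colitis-associated carcinogenesis with spermidine in the drinking water. The comparison uses 6 of the 30 RNA-seq libraries of the study, 3 from C57BL/6 wild-type (WT) mice and 3 from C57BL/6 Smox-/- mice, chosen by their labels for genotype, treatment and absence of tumor. All were male, 8 to 12 weeks old and bred in house. They received 1 injection of 12.5 mg/kg azoxymethane (AOM), a colon carcinogen, then 4% dextran sulfate sodium (DSS), which injures the mucosa of the colon, in 3 cycles of 5 days that began on days 5, 26 and 47, with 14 mM spermidine in the drinking water for 56 days. The tissue was sequenced after 56 days, with 3 mice in each group. Which part of Smox is deleted is not in the labels, nor is it said whether WT and Smox-/- mice were littermates or where along the colon the tissue was taken. The other groups used here were WT and Smox-/- mice after AOM-DSS alone, with spermidine alone and untreated (3 mice each), and 2 groups of 3 tumors, WT after AOM-DSS with spermidine and Smox-/- after AOM-DSS alone.

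Polyamines are small cations that bind nucleic acids and are needed for growth. Spermine oxidase, the product of Smox, oxidizes spermine to spermidine and releases hydrogen peroxide, and spermidine is also the substrate from which the translation factor Eif5a receives its hypusine residue. In the colon, tumors in this model commonly carry activated Wnt/beta-catenin signaling, which raises a set of target genes, while the Hox genes keep a positional code along the gut, with the last genes of each cluster highest near the rectum. Bulk colon RNA mixes epithelium, muscle, neurons, vessels and immune cells, so fewer cells of a type and less RNA per cell cannot be told apart.

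The 6 libraries held 33060607 to 68035606 counts. All expressed the epithelial gene Epcam, at 1904 to 2194 CPM (counts per 1000000 of the scaled library total), and the brush border gene Vil1, at 607 to 969 CPM. The WT libraries resembled each other, with Pearson's r of 0.978 to 0.982 between pairs across 19558 genes on log2 CPM. The 3 Smox-/- libraries were unlike each other, with r of 0.936 to 0.960. Replicate 2 was the nearest to WT, with r of 0.969 to 0.980. Replicate 1 held 263 genes at 2 CPM or more and at 5 times or more the level of each of the other 5 libraries, replicate 3 held 103 and replicate 2 held 1, against 1 to 35 in the WT libraries. These r values are descriptions across genes, which are not independent replicates.

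Smox-/- replicate 1, although labelled as free of tumor, resembled the tumors. Its mean r with the 6 tumor libraries was 0.967, against 0.899 to 0.930 for the other 5 libraries. Notum, a secreted Wnt inhibitor induced by Wnt itself, was at 158 CPM in replicate 1 and at 0.268 and 0.216 CPM in replicates 2 and 3, with 0.0980, 0.250 and 0.159 CPM in WT and 12.5 to 656 CPM in tumors. Nkd1, another feedback inhibitor, was at 264, 5.13 and 7.08 CPM in the Smox-/- libraries and at 3.69, 4.25 and 2.32 CPM in WT. Prox1, a transcription factor raised in intestinal adenomas, was at 240.0, 1.74 and 2.07 CPM against 2.40, 2.49 and 1.59 CPM. For each of these genes replicate 1 alone was high, inside the range of the tumors, and replicates 2 and 3 lay near WT. The stem cell gene Lgr5 (100.2 CPM in replicate 1, 3.19 to 8.73 CPM in the other 5 libraries), the imprinted RNA H19 (183 CPM against at most 0.523 CPM), Paneth cell lysozyme Lyz1 (433 CPM against at most 9.82 CPM) and the antimicrobial protein Lcn2 (67.4 CPM against at most 2.60 CPM) were also high in replicate 1 alone. Summed over 12 Paneth cell genes, replicate 1 reached 1007 CPM, WT 13.7 to 29.8 CPM and the other Smox-/- libraries 17.9 and 25.9 CPM.

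Smox-/- replicate 3 carried genes that were low in the other AOM-DSS libraries without tumor and high in mice without AOM-DSS. Osr2, a zinc finger transcription factor, was at 0.474, 0.804 and 76.8 CPM in the 3 Smox-/- libraries and at 0.147, 0.203 and 0.127 CPM in WT. The 6 libraries from AOM-DSS alone lay at 0.0431 to 0.289 CPM and the mice without AOM-DSS at 8.47 to 133 CPM. The carbonic anhydrase Car1 was at 319, 677 and 10035 CPM against 562, 514 and 604 CPM in WT, and at 3189.8 CPM or more in every library without AOM-DSS. Hoxb6, a Hox gene from the middle of its cluster, was at 0.790, 0.421 and 31.1 CPM against 1.03, 0.313 and 0.635 CPM. Replicate 3 alone was high for these 3 genes, and replicates 1 and 2 lay near WT. A list of Hox genes other than the distal ones (25 tested) had a mean log2 CPM of 1.53 in replicate 3. It was -0.34 to -0.04 in the other 5 libraries and 1.01 to 2.62 in mice without AOM-DSS. Distal Hox genes, described below, went the other way, with a mean of 0.43 in replicate 3, lower than in any mouse without AOM-DSS. Adipocyte genes also separated this library, with a summed 44.3 CPM over 8 genes against 4.48 to 12.7 CPM in the other 5.

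**Figure D1:**
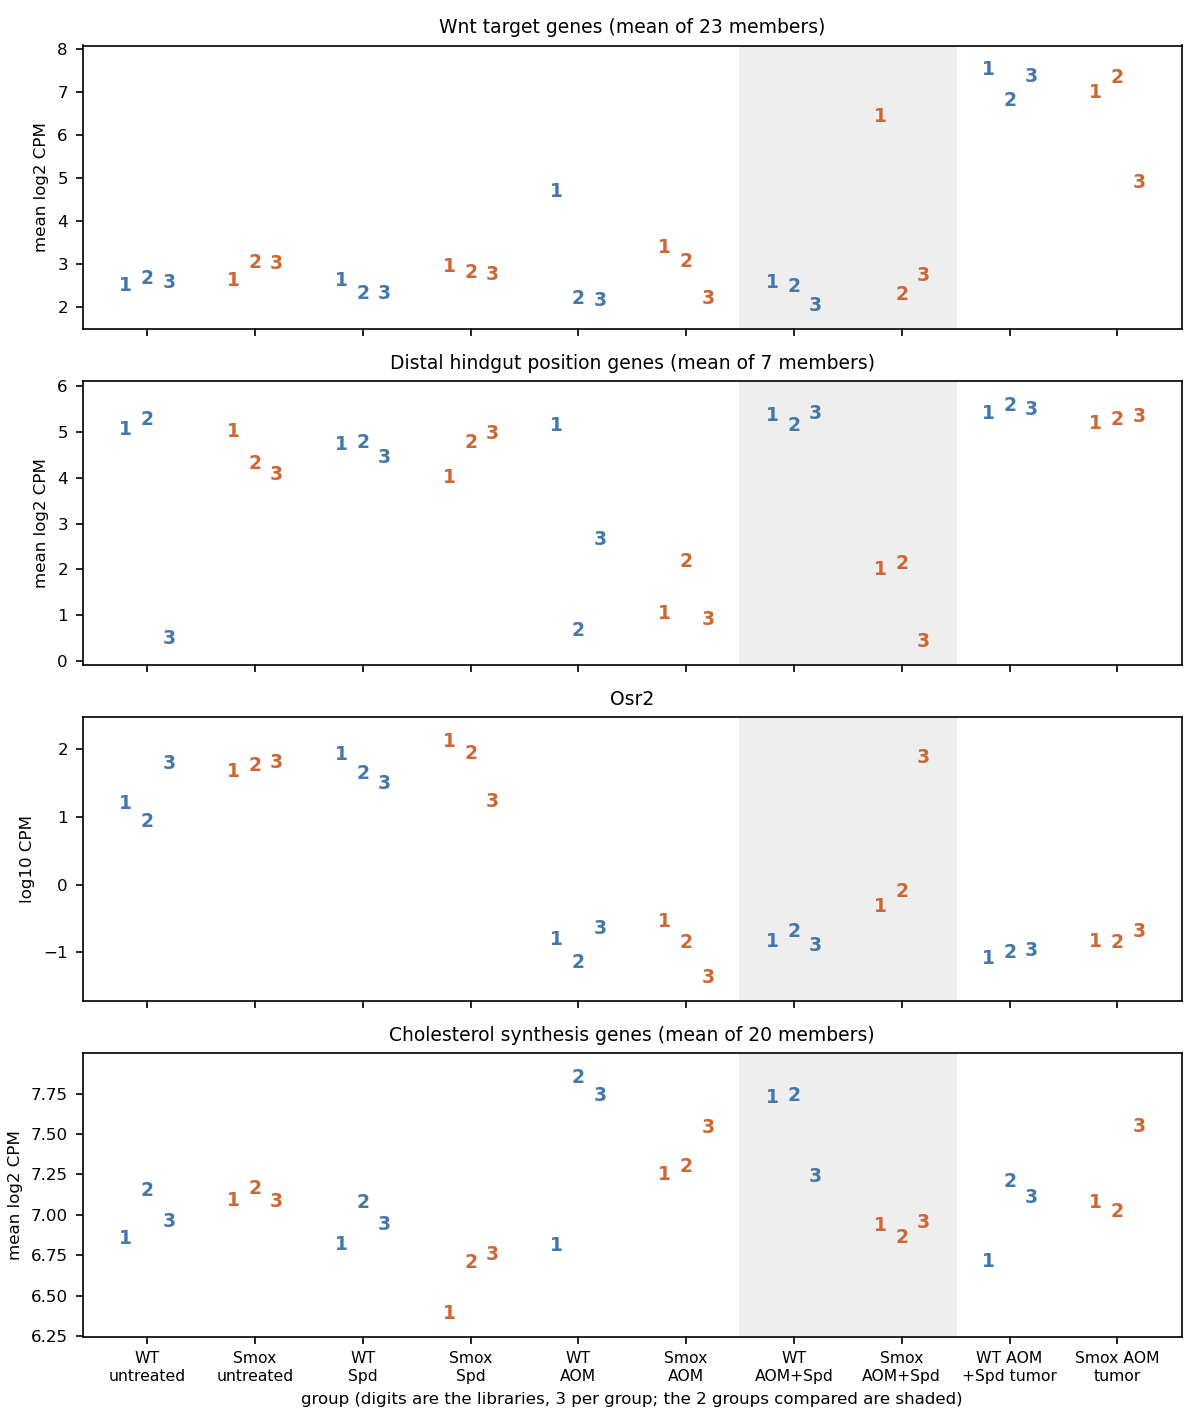
Levels in each of the 30 libraries, by group on the horizontal axis (digits 1 to 3 are the libraries, WT blue, Smox-/- orange): mean log2 CPM of Wnt target genes, of distal hindgut position genes and of cholesterol synthesis genes, and log10 CPM of Osr2. In the shaded groups Smox-/- replicate 1 lies with the tumors for Wnt target genes, replicate 3 with the mice without AOM-DSS for Osr2, and all 3 Smox-/- libraries lie below WT for the position and cholesterol genes.

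Among the genes that mark the distal hindgut, all 3 Smox-/- libraries shared low levels of Hoxd9 to Hoxd13, which are neighbors in the same cluster. The mean log2 CPM of 7 such genes (Hoxa13, Hoxb13 and Hoxd9 to Hoxd13, while Prac1, the other gene of the list, had no match) was 5.36, 5.14 and 5.40 in WT and 2.0, 2.14 and 0.43 in Smox-/-. Hoxd13, the last gene of its cluster, was at 207, 182 and 213 CPM in WT and at 13.2, 9.59 and 0.126 CPM in Smox-/-. Hoxd12 was at 21.0, 12.0 and 19.4 CPM against 0.0921, 0.440 and 0.0180 CPM. Hoxd11 was at 30.8, 23.2 and 29.8 CPM against 2.04, 1.07 and 0.685 CPM. The groups did not overlap for any of these. Hoxb13 did not follow them in all libraries, with 448, 438 and 591 CPM in WT libraries, 272, 501 and 37.9 CPM in Smox-/- libraries, and Hoxa13 had 77.0, 75.1 and 91.4 CPM against 48.9, 78.2 and 27.5 CPM. Both overlapped between the groups, replicate 2 being as high as WT. Of the 7 genes, 5 were lower without overlap, where 8.15% of all tested genes were. These 5 were Hoxd9 to Hoxd13, so as neighbors in the same cluster they are not independent members.

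The position genes also varied within other groups. After AOM-DSS alone their mean log2 CPM was 5.15, 0.68 and 2.65 in WT and 1.03, 2.17 and 0.91 in Smox-/-, while the 6 tumor libraries lay at 5.18 to 5.59. Mice without AOM-DSS lay at 4.01 to 5.28, except for 1 untreated WT library at 0.48. The 3 WT libraries of the comparison were thus near the tumors, with replicates 1 and 3 above all mice without AOM-DSS and replicate 2 within their range. Differences along the colon and the genotype cannot be told apart in the results that follow. A fit with the mean level of the position genes as a covariate called 41 genes in place of 49, of which 8 were among the 49.

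Smox itself was at 54.1, 47.5 and 46.6 CPM in WT and at 63.1, 23.2 and 35.0 CPM in Smox-/-. Replicate 1 was above all WT libraries, and replicates 2 and 3 were below them. The log2 change was -0.29 (SE 0.24, edgeR adjusted p = 0.628), and -0.77 without replicate 1 (edgeR adjusted p = 0.111, DESeq2 adjusted p = 0.0282). Transcript of Smox was therefore still counted in the Smox-/- mice, and because counts are per gene they do not show whether the deleted part was transcribed. Smox spans chr2:131491496-131525922 on the plus strand of GRCm38. In tumors Smox lay at 44.0 to 169 CPM.

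Of 19558 genes tested, 49 (0.251%) differed between the genotypes at an adjusted p under 0.05. In Smox-/- mice 33 rose (0.169% of those tested) and 16 fell (0.0818%), while 2773 genes (14.2%) had an unadjusted p under 0.05. Without Smox-/- replicate 1 there were 65 of 20073 genes (0.324%), 48 rising (0.239%) and 17 falling (0.0847%), with 11% at an unadjusted p under 0.05, and 28 genes were called in both fits. The number called rested on single libraries. Leaving out WT replicate 1, 2 or 3 left 4, 5 and 10 genes, leaving out Smox-/- replicate 3 left 8, and leaving out Smox-/- replicate 2, the library nearest to WT, gave 444. Without Smox-/- replicate 1 the same omissions gave 3, 4 and 13 genes for the WT libraries and 3 for Smox-/- replicate 3, and 265 for replicate 2. DESeq2 called 741 genes (3.8% of those it tested) and, without replicate 1, 391 (1.96%), and a fit of these 6 libraries alone called 1.

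**Figure D2:**
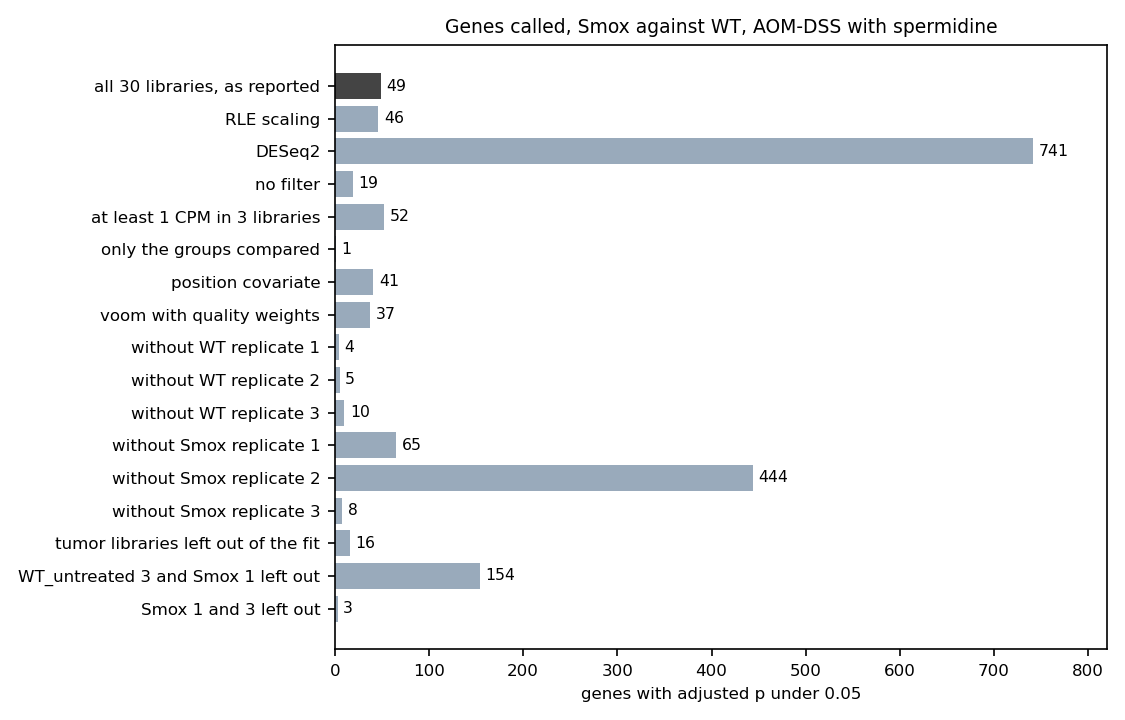
Number of genes with adjusted p under 0.05 between Smox-/- and WT after AOM-DSS with spermidine (horizontal axis) in the reported fit (dark bar) and in each alternative (grey bars). The count runs from 1 to 741, and leaving out any 1 WT library or Smox-/- replicate 3 brings it to 10 or fewer.

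The genes that held in every fit leaving out 1 of the 6 libraries were 4: Eif3j1, Jmjd7, Spg11 and Pcna-ps2. Every other called gene lost its call in at least 1 of these 6 fits. Eif3j1, a subunit of a translation initiation factor, was at 36.0, 34.2 and 40.7 CPM in WT and at 3.63, 3.31 and 2.20 CPM in Smox-/-, a log2 change of -3.60 (SE 0.21, adjusted p = 4.74e-10). The Smox-/- libraries lay together, far below the lowest WT library. Jmjd7, a protein hydroxylase, was at 9.08, 8.09 and 7.49 CPM against 0.763, 0.880 and 0.595 CPM (log2 change -3.46, SE 0.32, adjusted p = 1.51e-06). Spg11, a protein of lysosome recycling, was at 51.6, 46.6 and 43.9 CPM against 19.8, 16.7 and 21.1 CPM (log2 change -1.30, SE 0.18, adjusted p = 0.00107). Pcna-ps2, a processed pseudogene of the replication clamp gene Pcna, was at 0.0980, 0 and 0.0317 CPM in WT and at 15.6, 9.80 and 8.31 CPM in Smox-/- (adjusted p = 1.51e-06). Reads of a pseudogene can be split with its parent gene, so its level is uncertain. Eif3j1 (chr2:122028546-122056598, plus strand) and Spg11 (chr2:122053520-122118386, minus strand) overlap at their ends on opposite strands, and whether the counting used strand is not given in the sources used here.

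These 4 belong to a list of 8 genes that had been seen to differ by genotype in the other groups of these data, so their calls are not independent evidence of a genotype difference. The other 4 were also called. Adal, an adenosine deaminase-like enzyme, rose from 6.14, 6.44 and 7.27 CPM to 13.8, 11.9 and 15.8 CPM (log2 change 1.07, adjusted p = 0.0351). Bloc1s6, a subunit of a complex for lysosome-related organelles, rose from 31.6, 32.7 and 35.4 CPM to 44.2, 44.2 and 58.4 CPM (log2 change 0.56, adjusted p = 0.0192). The groups did not overlap for either. Eif3j2, which closely resembles Eif3j1 so that counts may be shared between them, was called at 42.0, 34.0 and 42.5 CPM against 79.7, 67.3 and 57.0 CPM (adjusted p = 0.0444, and 0.11 without replicate 1). The pseudogene Gm18234 had no count in WT and 31 counts in all over the 3 Smox-/- libraries. Gm18234 was called in 4 of the 6 fits leaving out 1 library and Eif3j2 in 1 of 6.

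Chromosome 2, which carries Smox, held 12 of the 49 called genes (24.5%) and 7.45% of the tested genes with a position. Of the 12, Eif3j1, Jmjd7, Spg11, Bloc1s6 and Adal lie at -11.5 to -8.75 Mb from Smox, negative distances being before its start. Exd1, a factor of the piRNA pathway, lies at -12.0 Mb and was at 0.490, 0.626 and 1.81 CPM in WT and at 3.26, 5.55 and 6.22 CPM in Smox-/- (log2 change 2.38, SE 0.42, adjusted p = 0.0192). Ccdc9b, at -12.7 Mb, was at 3.37, 3.35 and 2.38 CPM against 14.8, 8.42 and 29.9 CPM (log2 change 2.54, adjusted p = 0.0217). Pced1a, at -1.07 Mb, was at 5.10, 7.29 and 5.24 CPM against 13.4, 12.9 and 10.6 CPM (log2 change 1.06, adjusted p = 0.0351, and 0.0752 without replicate 1). All 3 were higher in every Smox-/- library than in any WT library. After AOM-DSS alone their log2 changes were 1.64, 1.68 and 0.60. edgeR called none of them there, while DESeq2 called Exd1 and Ccdc9b (adjusted p = 0.0117 and 0.0345). The other 4, Eya2, Malrd1, Slc25a12 and Hoxd10, lie farther off, at 34.1, -116, -60.2 and -56.8 Mb. Rhov, a small GTPase gene in the same stretch, and Phgr1, a gut epithelial gene beside Ccdc9b, were called in the fit without replicate 1 and not with all libraries, with log2 changes of 1.91 and 1.87 (adjusted p = 0.0349 and 0.0457). In untreated mice, where edgeR called 5.95% of all tested genes, it called Exd1, Rhov and Phgr1 (adjusted p = 0.0215, 0.0204 and 0.0454). Ccdc9b and Pced1a were not called there, and with spermidine alone edgeR called none of these genes. Exd1, Ccdc9b, Pced1a, Rhov and Phgr1 were chosen for their position after their values were seen.

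Besides those genes, a group of called genes was lower in all 3 Smox-/- libraries than in any WT library. B4galt1, the galactosyltransferase that extends N-glycans, fell from 297, 291 and 288 CPM to 181, 115 and 125 CPM (log2 change -1.06, SE 0.20, adjusted p = 0.0271). Mtf1, the transcription factor that senses zinc and induces metallothioneins, was at 61.8, 61.0 and 62.9 CPM in WT and at 31.8, 31.2 and 32.3 CPM in Smox-/-, a log2 change of -0.96 (SE 0.20, adjusted p = 0.0444). Its spread within each group was under 1 CPM (SD 0.958 and 0.539). Osbpl9, an oxysterol-binding protein of lipid exchange, fell from 113, 91.6 and 94.2 CPM to 66.8, 56.8 and 62.9 CPM (log2 change -0.68, SE 0.11, adjusted p = 0.008), and was called in 4 of the 6 fits leaving out 1 library. Pptc7, a mitochondrial phosphatase, and Cd2ap, an adaptor of the actin cortex, had log2 changes of -0.80 and -0.69 (adjusted p = 0.0295 and 0.0444). Spata7, a ciliary protein, fell from 12.6, 11.3 and 8.29 CPM to 5.17, 6.16 and 3.97 CPM (adjusted p = 0.0444). Without replicate 1, B4galt1 and Osbpl9 kept their calls (adjusted p = 0.00965 and 0.00828), and Mtf1, Pptc7, Cd2ap and Spata7 did not (0.0946, 0.0828, 0.0946 and 0.0751).

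Fabp6, the bile acid binding protein of ileal enterocytes, had one of the largest falls. Its levels were 23.8, 17.3 and 17.3 CPM in the WT libraries and 0.908, 2.28 and 1.12 CPM in the Smox-/- libraries, so that the groups were far apart (log2 change -3.76, SE 0.71, adjusted p = 0.0233, and 0.0745 without replicate 1). The WT libraries were also the ones that stood out in the study. Fabp6 was at 0.933 to 4.04 CPM after AOM-DSS alone in both genotypes, at 0.184 to 1.64 CPM in tumors and at 1.52 to 13.3 CPM in mice without AOM-DSS. Hoxd10, one of the position genes described above, fell from 12.7, 12.2 and 12.6 CPM to 1.09, 0.632 and 1.06 CPM (log2 change -3.74, adjusted p = 0.0444, and 0.0782 without replicate 1).

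Among the rises that no single Smox-/- library carried, Hsd3b7, an enzyme of bile acid synthesis, was at 18.7, 17.5 and 15.9 CPM in WT and at 45.1, 30.8 and 38.6 CPM in Smox-/- (log2 change 1.14, SE 0.19, adjusted p = 0.0102, and 0.0349 without replicate 1). Nrp2, a receptor for semaphorins and VEGF-C, was at 18.6, 21.4 and 22.9 CPM against 41.3, 68.6 and 91.1 CPM (log2 change 1.68, SE 0.29, adjusted p = 0.017, and 0.00289 without replicate 1). Auts2, a chromatin regulator, was at 16.6, 19.4 and 22.5 CPM against 40.2, 35.8 and 65.2 CPM (log2 change 1.27, adjusted p = 0.0217). No Smox-/- library overlapped WT for these 3 genes. Hsd3b7, Nrp2, Auts2, Osbpl9, Mtf1, Pptc7 and Cd2ap were chosen after their values were seen, as called genes without overlap whose difference no single Smox-/- library carried.

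A set of large rises was carried by replicate 3. Of the 33 genes that rose, 8 were highest there at 5 times or more the next Smox-/- library (with 0.1 CPM added to both), and 3 were so in replicate 1. Abca12, a lipid transporter, was at 0.776, 0.574 and 77.6 CPM in Smox-/- and at 0.0327, 0.125 and 0.0317 CPM in WT. Slc51a, a subunit of the basolateral bile acid exporter, was at 0.434, 0.727 and 65.6 CPM against 0.0817, 0.188 and 0.0317 CPM. Replicate 3 carried nearly all of the signal, while replicates 1 and 2 were also above every WT library. The peptide hormone gene Nts (0.474, 0.498 and 17.2 CPM against at most 0.0490 CPM), the bile acid regulator Malrd1 (0.316, 0.498 and 15.1 CPM against at most 0.0952 CPM) and the protease gene Pcsk5 (5.49, 4.63 and 80.7 CPM against at most 0.876 CPM) had the same form. Adjusted p for these 5 genes and Osr2 was 0.0217 to 0.0481 with all libraries and 0.00828 to 0.0109 without replicate 1. None of the 6 was called by edgeR when replicate 3 was left out.

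Without replicate 1, replicate 3 was 1 of 2 Smox-/- libraries. Of the 48 genes that rose in that fit, 25 were at 5 times or more in replicate 3 over replicate 2, and 15 were within 2 times of each other. Genes called in that fit and not with all libraries included Ugt2b5, a glucuronosyltransferase (0.459 and 37.1 CPM in replicates 2 and 3 against at most 0.114 CPM in WT, adjusted p = 0.0132), H2-T18, a non-classical MHC gene (0.842 and 45.7 CPM against at most 0.131 CPM, adjusted p = 0.0109), and Hoxb8 (0.230 and 22.4 CPM against at most 0.313 CPM, adjusted p = 0.0445). Alpi, the intestinal alkaline phosphatase of the brush border, was at 1.53 and 60.8 CPM against 0.686 to 0.825 CPM, and the cytochrome Cyp2c65 at 8.11 and 345 CPM against 4.95 to 11.8 CPM (adjusted p = 0.0462 for both). In mice without AOM-DSS the same 5 genes lay at 1.32 to 54.6, 12.9 to 159, 2.0 to 38.5, 12.5 to 97.5 and 57.7 to 449.9 CPM in turn. Replicate 3 was within those ranges for all 5. Ugt2b5, Cyp2c65 and H2-T18 belong to families of closely similar genes, so their counts may be shared with relatives.

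Of the 17 genes that fell without replicate 1, 16 differed by less than 2 times between replicates 2 and 3, and 7 were also called with all libraries. Scd1, the stearoyl-CoA desaturase that makes monounsaturated fatty acids, was at 148, 168 and 140.5 CPM in WT and at 85.0, 45.5 and 42.7 CPM in Smox-/-. Its log2 change was -1.40 with all libraries (adjusted p = 0.0662) and -1.79 without replicate 1 (adjusted p = 0.0331). Gda, a guanine deaminase, was at 170.1, 167 and 120.1 CPM against 120.0, 44.1 and 76.1 CPM (log2 change -1.35 without replicate 1, adjusted p = 0.03). Rdx, which links membranes to actin, was at 75.5, 55.1 and 72.0 CPM against 55.5, 21.4 and 8.49 CPM (log2 change -2.17 without replicate 1, adjusted p = 0.0437). For all 3 genes replicate 1 was the Smox-/- library nearest to WT, and replicates 2 and 3 were below WT.

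A smaller number of called genes rested on replicate 1. Onecut2, a transcription factor, was at 20.5, 0.268 and 0.469 CPM in Smox-/- and at 0.0653, 0.0782 and 0 CPM in WT (adjusted p = 0.039, and 0.258 without replicate 1). Dkk2, a secreted modulator of Wnt signaling, was at 39.6, 0.459 and 0.775 CPM against 0.294, 0.156 and 0.0317 CPM (adjusted p = 0.046, and 0.454 without it). The tumors held 2.42 to 22.1 CPM of Onecut2 and 9.85 to 112 CPM of Dkk2, and replicate 1 was within both ranges. Among 23 Wnt target genes Dkk2 was the 1 called by edgeR, while DESeq2 called 9, all higher, and 13 had an unadjusted p under 0.05. Prkg2, a cGMP-dependent kinase of the gut epithelium, was high in replicates 1 and 3 but not in replicate 2, with 45.4, 1.13 and 33.2 CPM against 0.0817, 0.125 and 0.0635 CPM (adjusted p = 0.0217, and 0.03 without replicate 1).

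**Figure D3:**
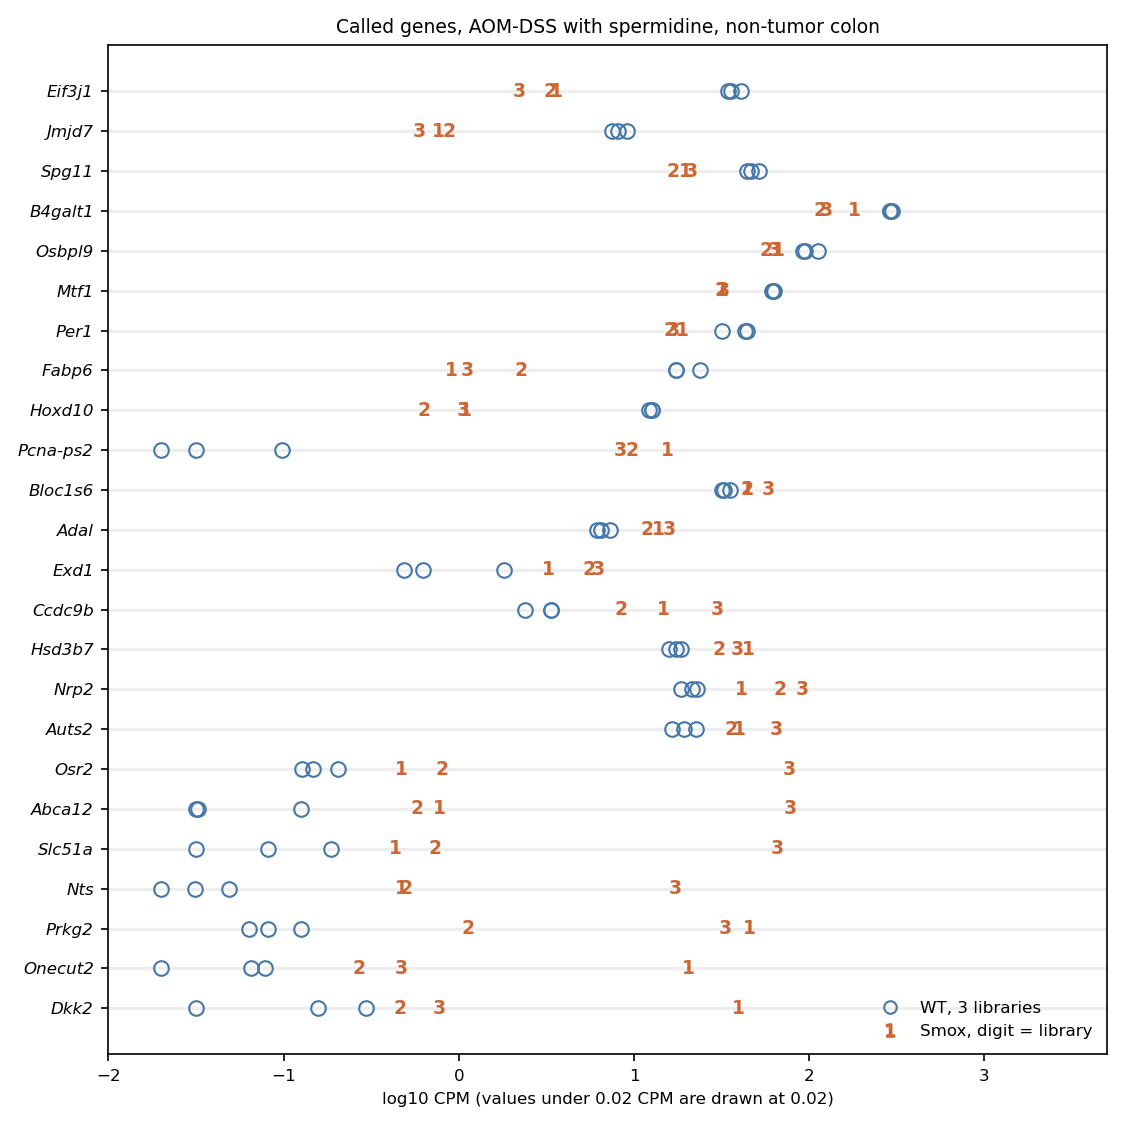
CPM of 24 called genes (rows) on a log10 axis in the 3 WT libraries (open blue circles) and the 3 Smox-/- libraries (orange digits give the replicate). In the upper rows all 3 Smox-/- libraries differ from WT, while the large rises in the lower rows are carried by replicate 3 (Osr2, Abca12, Slc51a, Nts) or by replicate 1 (Onecut2, Dkk2).

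Cholesterol synthesis builds sterols for membranes. edgeR called no gene of the pathway, with 17 of 20 at an unadjusted p under 0.05, whereas 5 were called with DESeq2, all lower (2 without replicate 1). All 20 genes had a negative log2 change, and in 17 of 20 every Smox-/- library was below every WT library, where 8.15% of all tested genes were. The median log2 change was -0.66 with all libraries and -0.67 without replicate 1, against 0.05 and 0.01 over all tested genes. Hmgcs1, which makes HMG-CoA for the pathway, was at 769, 716 and 500.2 CPM in WT and at 303, 305 and 322 CPM in Smox-/- (log2 change -1.09, SE 0.26, adjusted p = 0.068, and 0.152 without replicate 1). The Smox-/- libraries lay within 20 CPM of each other, and the WT libraries were spread by over 200 CPM. Sqle, the squalene epoxidase, was at 281, 249.8 and 196 CPM against 129.7, 129.9 and 146 CPM, and Idi1, the isopentenyl isomerase, at 311, 333 and 221 CPM against 179, 192 and 136 CPM. Srebf2, the transcription factor that drives the pathway when sterols are low, was at 427, 392 and 373 CPM against 330.3, 275 and 305 CPM. Insig1, one of its targets, overlapped between the groups, with 80.9 to 207 CPM against 95.8 to 111 CPM.

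After AOM-DSS alone the median log2 change of the pathway was -0.12, and the difference between the 2 comparisons was called for none of its genes by edgeR or DESeq2, with 2 at an unadjusted p under 0.05. Its mean log2 CPM was 7.72, 7.74 and 7.24 in WT and 6.94, 6.86 and 6.96 in Smox-/- after AOM-DSS with spermidine. After AOM-DSS alone it was 6.81, 7.85 and 7.74 in WT and 7.25, 7.30 and 7.54 in Smox-/-, and in the mice without AOM-DSS it lay between 6.39 and 7.16. The 3 Smox-/- libraries thus lay within the range of mice without AOM-DSS and the 3 WT libraries above it. With the position genes as a covariate the median log2 change was -0.96, against 0.14 over all tested genes. Other lists did not all keep their sign with this covariate. Cell cycle genes went from -0.37 to 0.85 and T and NK cell genes from 0.45 to -0.67. Tuft cell genes kept theirs, going from 1.65 to 1.31.

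**Figure D4:**
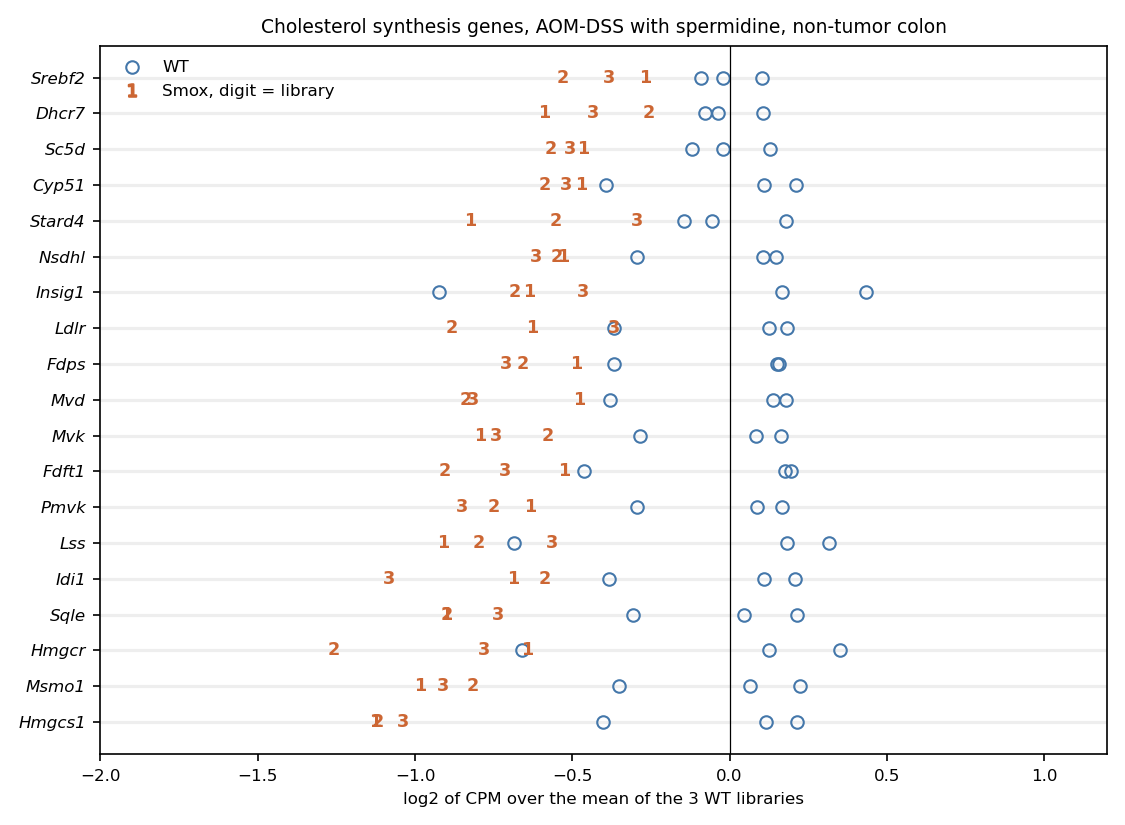
Level of 19 of the 20 cholesterol synthesis genes (rows) in the 3 WT libraries (open blue circles) and the 3 Smox-/- libraries (orange digits give the replicate), as log2 of CPM over the WT mean. All 19 genes shown are lower on average in Smox-/-, and in 16 of them the groups do not overlap.

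Since these genes shared a sign, the promoters of a pair of them are shown, with that of Per1, the called clock gene described further on. RefSeq entries on GRCm38.p6 were present for 13 of the 20 cholesterol genes, and the 250 bases before the transcription start were searched on both strands for CCAAT, the box bound by NF-Y, for TCACNCCAC, a form of the sterol element, and for CACGTG, the E-box bound by clock proteins. CCAAT occurred for all 13 genes, in 13 of their 16 entries (81.25%), for 10 of 14 clock genes with an entry (68.4% of their entries) and in 33.8% of all 32851 entries. TCACNCCAC occurred for 1 of the 13, Hmgcs1, and in 1.05% of all entries. CACGTG occurred for 3 of the 13 (Dhcr7, Insig1 and Sc5d), for 5 of the 14 clock genes (Bhlhe41, Ciart, Cry1, Per1 and Tef, 31.6% of their entries) and in 6.02% of all entries. A match describes letters only. Per1 has 2 entries, and the one shown was chosen because it holds CACGTG. In the sequences below, written 5′ to 3′ on the gene's strand, capitals mark CCAAT and TCACNCCAC or their complements in Hmgcs1 (plus strand, chr13:119690101-119690350), CCAAT in Idi1 (plus strand, chr13:8885356-8885605) and CACGTG in Per1 (plus strand, chr11:69098699-69098948), where CCAAT is left unmarked.
Hmgcs1: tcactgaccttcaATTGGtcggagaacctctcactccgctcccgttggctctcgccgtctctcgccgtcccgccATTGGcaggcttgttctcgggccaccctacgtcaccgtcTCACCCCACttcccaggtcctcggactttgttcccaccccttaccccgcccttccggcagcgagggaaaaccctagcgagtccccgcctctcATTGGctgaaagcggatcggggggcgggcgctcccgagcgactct
Idi1: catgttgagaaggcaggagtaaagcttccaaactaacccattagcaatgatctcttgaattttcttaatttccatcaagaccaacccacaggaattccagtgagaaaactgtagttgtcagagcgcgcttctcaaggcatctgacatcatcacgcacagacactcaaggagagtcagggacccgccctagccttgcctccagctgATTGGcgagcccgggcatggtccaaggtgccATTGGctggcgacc
Per1: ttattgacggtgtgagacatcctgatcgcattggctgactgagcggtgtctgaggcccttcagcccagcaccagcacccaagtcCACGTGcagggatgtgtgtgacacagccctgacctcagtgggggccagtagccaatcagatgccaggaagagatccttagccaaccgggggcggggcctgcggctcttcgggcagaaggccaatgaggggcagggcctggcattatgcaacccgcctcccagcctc

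Per1, a repressor in the circadian clock that also responds to glucocorticoids, was the 1 gene called among 17 clock genes, by edgeR as by DESeq2. Its levels were 43.2, 44.2 and 31.7 CPM in the WT libraries and 18.8, 16.1 and 16.7 CPM in the Smox-/- libraries, every Smox-/- library being well below WT (log2 change -1.21, SE 0.25, adjusted p = 0.0444, and 0.0595 without replicate 1). Of the 17 genes 5 were lower without overlap, beside 8.15% of all tested genes, and 1, Bhlhe41, was higher, beside 7.93%. The lower ones included, besides Per1, Clock, an activator of the cycle (148, 137 and 170.0 CPM against 114, 107 and 86.2 CPM), Cry2 and Tef. Among the clock genes that overlapped between the groups, Per2 was at 31.3, 28.2 and 27.7 CPM against 20.5, 28.9 and 22.3 CPM, Dbp at 27.7, 29.7 and 34.1 CPM against 9.82, 39.0 and 21.2 CPM, and Nr1d1 at 52.7, 75.0 and 91.9 CPM against 41.5, 119 and 85.1 CPM. The median log2 change of the 17 genes was -0.25. After AOM-DSS alone Per1 changed by -0.15 (adjusted p = 0.896), and the difference between the 2 comparisons was -1.05 (adjusted p = 0.982). The labels give no time of day.

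Genes induced by interferon, the antiviral cytokine family, included no gene called by edgeR or DESeq2, and 3 of 27 had an unadjusted p under 0.05. Of the 27 genes 26 had a negative log2 change, 11 were lower without overlap, where 8.15% of all tested genes were, and the median was -1.17 (-0.86 without replicate 1). Zbp1, a sensor of nucleic acids, was at 60.2, 41.9 and 35.4 CPM in WT and at 13.8, 15.7 and 20.4 CPM in Smox-/-. Igtp, an interferon-induced GTPase, was at 57.8, 31.8 and 25.7 CPM against 5.82, 15.5 and 15.2 CPM. WT replicate 1 was the highest of the 6 for both genes, and no Smox-/- library reached WT. Irf7 did not follow, with 144, 79.8 and 110.2 CPM against 38.6, 84.2 and 189.7 CPM. After AOM-DSS alone the median of the list was 0.78. Its mean log2 CPM there was 1.56, 2.68 and 3.00 in WT and 1.99, 2.64 and 4.38 in Smox-/-, replicate 3 alone being above WT. The difference between the 2 comparisons was called for none of the 27 genes by edgeR or DESeq2. For that difference 10 had an unadjusted p under 0.05, beside 4.19% of all tested genes. With spermidine the mean log2 CPM of the list was 4.91, 3.84 and 3.89 in WT and 2.38, 3.04 and 3.54 in Smox-/- after AOM-DSS. It ran from 2.42 to 5.55 over the mice without AOM-DSS.

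Tuft cells are the chemosensory cells of the epithelium. All 14 of their genes tested had a positive log2 change, 6 were higher without overlap, where 7.93% of all tested genes were, and the median was 1.65 (1.71 without replicate 1). edgeR called none of them, although 10 had an unadjusted p under 0.05, whereas 5 were called with DESeq2, all higher. Trpm5, the taste transduction channel, was at 0.278, 0.313 and 1.94 CPM in WT and at 1.92, 6.97 and 6.00 CPM in Smox-/-. Dclk1 was at 1.94, 3.14 and 4.95 CPM against 5.01, 13.8 and 12.2 CPM, and Pou2f3, the factor that specifies these cells, at 0.163, 0.0782 and 0.444 CPM against 0.303, 1.61 and 1.35 CPM. Replicates 2 and 3 were highest for these 3 genes, and replicate 1 was close to the highest WT library. Avil, an actin-binding protein of tuft cells, had another pattern, with 56.6 CPM in replicate 1, 5.44 and 6.33 CPM in replicates 2 and 3 and 3.60 to 4.23 CPM in WT. In the tumors it was at 19.4 to 159.9 CPM. The median of the list after AOM-DSS alone was 0.66.

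Goblet cell genes had a median log2 change of 0.55 (0.75 without replicate 1), with 16 of 18 positive, and 5 higher without overlap, beside 7.93% of all tested genes. edgeR called none, with 4 at an unadjusted p under 0.05, whereas Sytl2 was called as higher with DESeq2 (adjusted p = 0.0473). The mucin gene Muc2 was at 609.6, 1549 and 1280.1 CPM in WT and at 1859, 3089.7 and 6671 CPM in Smox-/-, above WT in each library. Spdef, which drives goblet cell maturation, was at 37.8, 54.2 and 45.0 CPM against 59.1, 76.5 and 212 CPM. Fcgbp, an abundant mucus protein, overlapped, with 2157, 3437 and 4959.9 CPM against 2392, 4417 and 3632 CPM.

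Genes of polyamine metabolism, the pathway of Smox itself, had both signs. Of 20 genes, 11 had a positive and 9 a negative log2 change, and the median was 0.08. edgeR called none, with 3 at an unadjusted p under 0.05, whereas 1 was called with DESeq2, Arg1, which makes ornithine from arginine and was at 24.1, 0.211 and 8.51 CPM in Smox-/- and at 0.751, 0.547 and 0.190 CPM in WT. Odc1, which makes putrescine, was at 175, 141 and 151 CPM in WT and at 207, 190.0 and 264 CPM in Smox-/-, and was the 1 gene higher without overlap, beside 7.93% of all tested genes. Atp13a3, a polyamine transporter, was the 1 gene lower without overlap, beside 8.15%, with 224, 210.3 and 274 CPM against 197, 185 and 176 CPM. Amd1, which supplies the aminopropyl donor, was at 138, 119.8 and 156 CPM against 124, 82.1 and 76.2 CPM, lower in replicates 2 and 3. Sat1, the spermidine and spermine acetyltransferase, was at 209, 245 and 170.1 CPM against 223, 223 and 212 CPM, and Paox, the oxidase of acetylated polyamines, at 14.4, 12.6 and 13.8 CPM against 7.67, 14.6 and 10.5 CPM. Eif5a was at 634, 481 and 513 CPM against 546, 418 and 441 CPM. These 3 overlapped between the genotypes.

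The median of several lists depended on replicate 1. Wnt target genes went from 1.66 to 0.01 without it, neutrophil and acute inflammation genes from 2.72 to 0.77, extracellular matrix genes from 1.40 to 0.56 and regenerative epithelium genes from 0.92 to -0.03. Paneth cell genes went from 6.46 to -1.58. Fn1, the matrix protein fibronectin, was at 567, 91.7 and 99.9 CPM in Smox-/- and at 100.2, 71.4 and 37.3 CPM in WT, and Il1b, an inflammatory cytokine, at 25.2, 0.861 and 6.89 CPM against 2.50, 1.66 and 0.508 CPM. Replicate 1 was highest for both. With all libraries edgeR called no member of these 5 lists other than Dkk2, while 13 Wnt target, 10 neutrophil, 12 matrix, 8 regenerative and 11 Paneth cell genes had an unadjusted p under 0.05, and those called with DESeq2 numbered 9, 3, 4, 4 and 6 in turn. Without replicate 1 edgeR called none, with 1, 1, 2, 1 and 2 at an unadjusted p under 0.05 and 1, 0, 0, 0 and 1 called with DESeq2.

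Other lists had medians farther from 0 without replicate 1. Cell cycle genes had a median of -0.37 with all libraries and -0.75 without replicate 1, where 19 of 22 were lower in both replicates 2 and 3 than in any WT library, beside 15.7% of all tested genes. Mki67 was at 353, 189 and 284 CPM in WT and at 212, 178 and 170.1 CPM in Smox-/-, and Top2a at 249.6, 137 and 170.5 CPM against 227, 92.7 and 105 CPM. Enteric neuron and glia genes had a median of 1.09 and 1.33, and 16 of 18 were higher in replicates 2 and 3 than in all WT libraries, beside 16.5% of all tested genes. Smooth muscle genes had a median of 0.22 and 0.67, and 12 of 15 were higher in replicates 2 and 3 than in all WT libraries, beside the same 16.5%. Their summed level was 1942 to 2326 CPM in the WT libraries and 1085, 3500 and 3158 CPM in Smox-/-, replicate 1 being the lowest and replicates 2 and 3 the highest. Neither edgeR nor DESeq2 called any gene of these 3 lists in either fit, and 0, 1 and 0 of them had an unadjusted p under 0.05 with all libraries, and 2, 6 and 0 without replicate 1. With the position genes as a covariate and all libraries the medians of the 3 lists were 0.85, 0.57 and 1.43 in turn. The median of the cell cycle genes thus changed sign. The part that muscle and nerve content plays in the results was not tested.

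**Figure D5:**
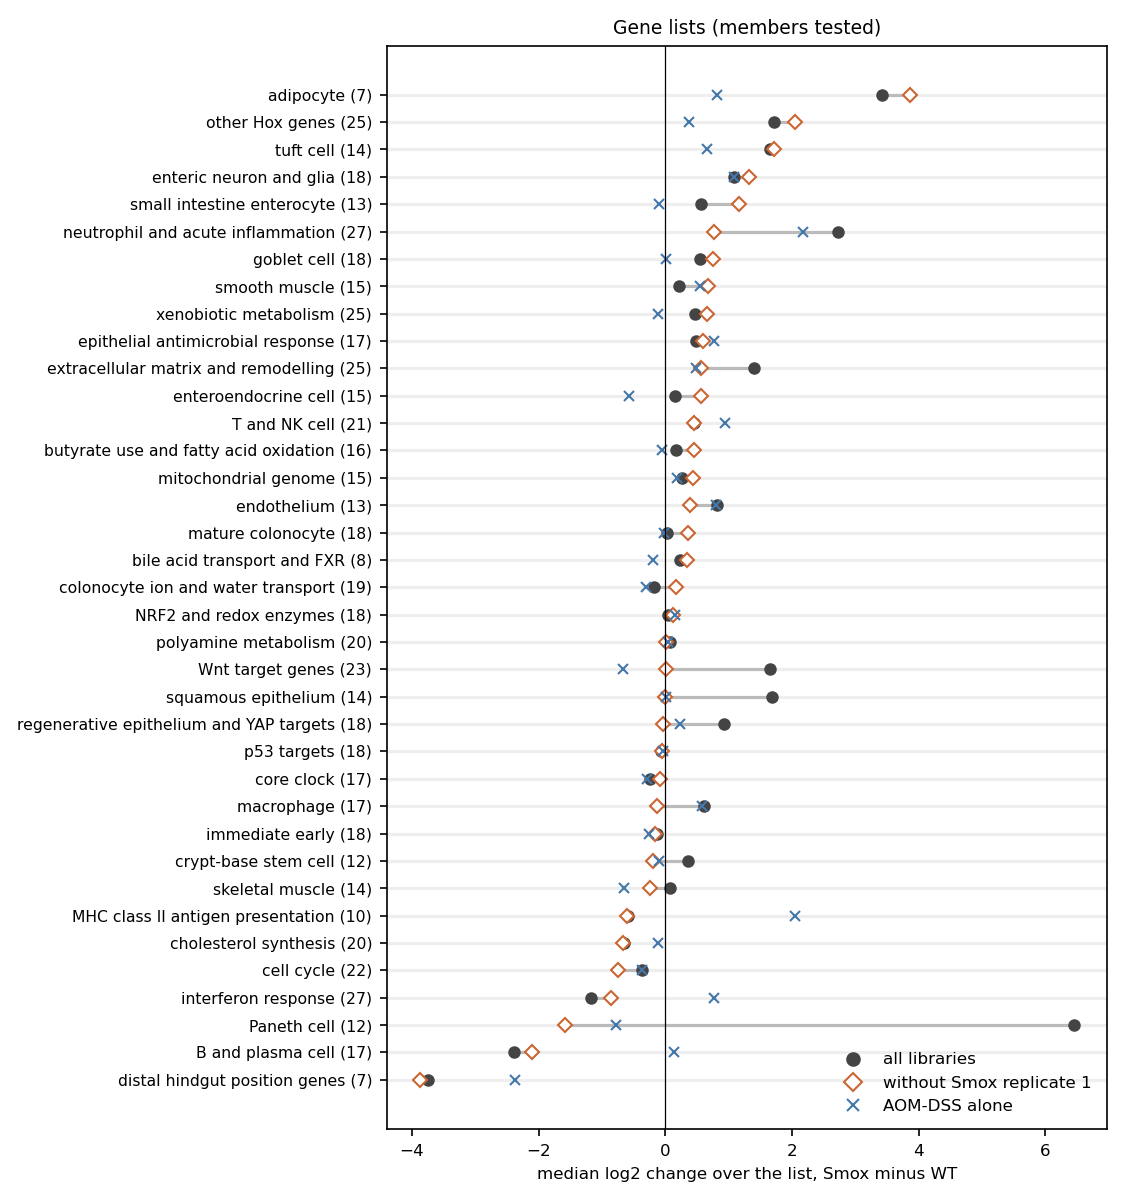
Median log2 change, Smox-/- minus WT, over each gene list with 7 or more members tested (rows, with the number of members tested) with all libraries (dark circles), without Smox-/- replicate 1 (open orange diamonds) and after AOM-DSS alone (blue crosses). Among the lists shown, Paneth cell, neutrophil, squamous epithelium and Wnt target genes move most when replicate 1 is left out, while cholesterol synthesis and tuft cell genes keep their medians.

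Markers of other tissues were present to different degrees. Summed over 10 genes, pancreas markers reached at most 0.604 CPM in the 6 libraries, and skeletal muscle markers 7.69 to 15.2 CPM over 14 genes. Small intestine enterocyte genes summed to 258, 271 and 320 CPM in WT and to 158, 327 and 911 CPM in Smox-/-. Replicate 3 was the highest of the 6 libraries, within the 491 to 1900 CPM of mice without AOM-DSS. After AOM-DSS alone the sums were 179 to 506 CPM. The part of these genes in the results was not tested. Squamous epithelium markers summed to 5.14 to 22.5 CPM in WT and to 113, 6.45 and 60.6 CPM in Smox-/- replicates 1, 2 and 3, high in both libraries that stood apart, and their part in the results was not tested. In other AOM-DSS tissue they lay between 15.3 and 26.1 CPM without tumor and between 77.7 and 687 CPM in tumors. None of the 14 squamous genes was without overlap between the groups, beside 16.1% of all tested genes. Reg3g, an antimicrobial lectin of inflamed epithelium, was likewise high in replicates 1 and 3, with 49.5, 0.364 and 56.3 CPM against 0.474, 0.344 and 0.0952 CPM.

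The same genotype contrast in the other treatments used separate mice. After AOM-DSS alone 13 genes were called (0.0665%), with spermidine alone 16 (0.0818%) and in untreated mice 1164 (5.95%), a number that falls to 17, 6 and 6 when WT replicate 3 or Smox-/- replicate 2 or 3 of the untreated mice is left out. Of the 49 genes, 8 were also called after AOM-DSS alone, and these were the 8 listed genotype genes. Of the other 41, none was called after AOM-DSS alone with edgeR and 5 were with DESeq2, 25 had an unadjusted p under 0.05 there (8.39% of all tested genes did), and all 41 had the same direction there, as had 66.2% of all tested genes. The 28 of these that rose had a median log2 change of 4.28 here and 1.42 after AOM-DSS alone, and the 13 that fell -0.96 and -0.31. With spermidine alone 32 of the 41 had the same direction (63.8% of all tested genes) and with no treatment 29 (47.3%). The mean log2 CPM of the position genes described above was low in the Smox-/- libraries of both AOM-DSS settings and in 2 of 3 WT libraries of AOM-DSS alone.

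No gene passed edgeR's test of the difference between the AOM-DSS settings, although DESeq2 called 67 and an unadjusted p under 0.05 was found for 820 genes (4.19%). For that difference DESeq2 called 7 members of the Wnt target list, 4 of the Paneth cell list and 2 of the crypt-base stem cell list. It also called Notum, Prox1 and Lgr5, which were high in replicate 1 alone (DESeq2 adjusted p = 0.000962, 0.0144 and 0.0111). Against spermidine alone no gene passed edgeR's test either, with 1177 genes (6.02%) under an unadjusted 0.05 and 98 called by DESeq2. Leaving out Smox-/- replicate 1 gave none in both edgeR tests, with 757 (3.77%) and 1479 genes (7.37%) under an unadjusted 0.05. DESeq2 was not run without replicate 1 for these differences. edgeR thus detected no genotype difference that depends on spermidine or on AOM-DSS with 3 mice in each group, while DESeq2 called some genes. A p above the threshold does not show that the responses were alike.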

How the data were processed

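RNA of mouse colon was measured by RNA-seq. Libraries were made with a directional kit from column-purified RNA, per the labels' protocols. The submitters' processing notes name fastp, Salmon, DESeq2 and GRCm38, with no versions or settings. The authors deposited estimated counts per gene, as whole numbers, for 31023 genes in 30 libraries. The table's symbols were used for 20430 genes, and GENCODE vM21 named 10546 more by identifier and gave positions on GRCm38.

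Tests used edgeR 4.0.16 (R 4.3.3) on these counts. TMM set the library sizes. After filterByExpr (minimum count 10, minimum total 15) 19558 genes remained, and the 11465 left out made up 0.0165% of the counts in the median library. A quasi-likelihood model with 1 mean per group was fitted to all 30 libraries (20 residual degrees of freedom), and p-values were adjusted over all genes tested by Benjamini-Hochberg, with a threshold of 0.05. A gene rose or fell only past that threshold. Without Smox-/- replicate 1 the filter and the fit were repeated. CPM are counts over the TMM-scaled library total, and log2 CPM use a prior count of 2. Groups that do not overlap have every library of one above every library of the other. Spread between libraries covers counting error and differences between mice.

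The comparison, the gene lists and the members named were chosen with earlier results of these data known. Genes were named by rule: Smox; in each of the 2 fits the 8 largest rises and 8 largest falls among called genes with a symbol, at least 2 CPM in the higher group, 3 counts in the lower and no overlap; up to 4 called members per list; and the 2 highest expressed members of lists without calls. Others were chosen after their values were seen, among them most members of the position, cholesterol, interferon, tuft cell, clock, Wnt and polyamine lists. The alternatives were RLE scaling, DESeq2 1.42.0, testing all genes, a minimum of 1 CPM in 3 libraries, only the groups compared, a position covariate, voom with quality weights (limma 3.58.1), leaving out single libraries, the tumors or 2 atypical libraries, and, added after seeing the data, Smox-/- replicates 1 and 3. The procedure was tested on simulated data that held no library as atypical as Smox-/- replicates 1 and 3, so that test does not cover their effect. No sample columns were left unused. Some genes are not reported here.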

Additional observations from a re-analysis of the deposited data

How the results depend on the processing

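The 49 genes called became 46 with RLE scaling, 52 with a filter of 1 CPM in 3 libraries, 41 with the position covariate and 37 with voom, and 741 with DESeq2, 19 with no filter, 1 with only the groups compared, 16 without the tumor libraries, 154 without WT untreated replicate 3 and Smox-/- replicate 1, and 3 without Smox-/- replicates 1 and 3, where replicate 2 stands alone and is assumed to vary like the other groups. Leaving out each library gave 4 to 444 genes. The 65 called without Smox-/- replicate 1 became 58 with RLE scaling and 61 at 1 CPM, and 391 with DESeq2, 37 with no filter, 7 with only the groups compared, 6 with the position covariate, 41 with voom, 37 without the tumors and 154 without WT untreated replicate 3, and leaving out a further library gave 3 to 265. The 13 called after AOM-DSS alone became 128 with DESeq2, 1 with only the groups compared and 108 with voom, and 5 to 14 leaving out a library. With spermidine alone the 16 became 210, 6 and 962 in turn, and 4 to 15. The 1164 of untreated mice became 2689 with DESeq2, 592 with no filter, 1 with only the groups compared and 5912 with voom, and 6 to 1351. The difference between the AOM-DSS settings called 67 genes with DESeq2 and 0 to 1 leaving out a library, and that against spermidine alone 98 with DESeq2, 3 with only the groups compared and 0 to 2. Of 654 values for 41 named genes under these alternatives 368 were graded the same, 254 weaker, 31 stronger and 1 reversed. The reversed one was for Smox. Its log2 change ran from -0.77 to 0.00798 when single libraries were left out, the latter without Smox-/- replicate 2. The cause of these differences was not tested. No paired analysis was possible because the labels give running library numbers and no replicate numbers shared between groups. Depth was not limiting for most genes named, but genes under 0.1 CPM rest on a few counts.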

Other observations

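Immune cell genes, which are not described above, varied between the libraries of each genotype. Class II antigen presentation genes, which display antigen to T cells, summed to 286, 444 and 252 CPM in WT and to 207, 298 and 158 CPM in Smox-/- replicates 1, 2 and 3. All 10 had a negative log2 change, and 1, the class II activator Ciita, was lower without overlap, beside 8.15% of all tested genes. Neither edgeR nor DESeq2 called any, and 3 had an unadjusted p under 0.05. The median was -0.59, against 2.04 after AOM-DSS alone. There the genes summed to 190, 328 and 453 CPM in WT and to 260, 403 and 3930 CPM in Smox-/-, where replicate 3 stood alone. B and plasma cell genes summed to 345, 755 and 321 CPM against 762, 278 and 648 CPM. Taken gene by gene, 11 of 17 log2 changes were negative, with a median of -2.39 (-2.10 without replicate 1). No member was without overlap or passed in edgeR, where 7 had p below 0.05 before adjustment. With DESeq2 1 member was lower. The mean log2 CPM of the list was 0.36, 3.50 and -0.64 in WT and 0.11, -0.21 and 0.94 in Smox-/-. Cd79a, a part of the B cell receptor, was at 0.817, 18.5 and 0.190 CPM against 0.355, 0.766 and 0.811 CPM. WT replicate 2 stood alone in both. Macrophage genes summed to 202, 206 and 123 CPM against 387, 137 and 173 CPM, highest in replicate 1. Gzma, a protease of cytotoxic lymphocytes, was at 0.425, 0.329 and 0.413 CPM against 0.592, 1.42 and 3.08 CPM, without overlap but not called by edgeR or DESeq2.

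Among transport genes Slc9a3, the sodium-proton exchanger of the brush border, was at 11.4, 39.0 and 45.8 CPM in WT and at 116, 113 and 291 CPM in Smox-/-, without overlap and not called by edgeR or DESeq2. The chloride exchanger Slc26a3 was at 330, 420 and 692 CPM against 83.4, 809 and 378 CPM, and the water channel Aqp8 at 143, 250 and 421 CPM against 51.8, 451 and 319 CPM. Replicate 1 was the lowest of the 6 libraries for both, and the groups overlapped. The 18 redox enzyme genes and the 18 p53 target genes had medians of 0.05 and -0.07. No redox gene and 1 p53 target gene were without overlap, beside 16.1% of all tested genes. Neither edgeR nor DESeq2 called any of them, and 0 redox and 1 p53 target gene had an unadjusted p under 0.05. These genes were chosen after their values were seen.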
